A study of Mus musculus with 5 samples.

Results

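The genes of the germline piRNA pathway described here are 10 of the 55348 gene symbols listed over the deposited RNA-seq tables, and all 10 were found by symbol. They were chosen by name: TDRD5, TDRD9, TDRD12, TDRKH, PIWIL2, PIWIL4, ASZ1, MAEL, MORC1 and DNMT3L. PIWI-interacting RNAs (piRNAs) are small RNAs of germ cells that guide PIWI proteins to transposon transcripts. In fetal male germ cells this pathway also directs new DNA methylation to transposon promoters. In somatic cells the promoters of many of its genes are themselves methylated and silent, which is why these genes are often followed after treatment with azacytidine, a cytidine analog that traps DNA methyltransferases.

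RNA of LLC, the Lewis lung carcinoma line of the mouse, was sequenced for 5 groups, and a single library stands for each group. These are Control, BMN (the PARP inhibitor BMN673), PAZA (a polymer carrier to which azacytidine is conjugated), BMN/PAZA at a low dose and BMN/PAZA at a high dose, where BMN is loaded into the carrier. The methods state that the RNA came from tumors but not which of several mouse models they were taken from, whereas the labels speak of cultured LLC cells and a treatment of 72 h. The labels give low and high dose in words only and no dose for BMN or PAZA alone. Doses by body weight are given in the text of the study and are not repeated here, and neither source says if several tumors were pooled.

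Expression is given as FPKM (fragments per gene length, scaled to the mapped fragments of the library), a unit read from the form of the values because the tables do not name it. Each of the 5 tables holds 2 libraries. Levels set beside each other from different tables carry a scale difference of about 6.03% between the Control/PAZA table and the BMN/low-dose table. The number of fragments per library is not given. Judged by the commonest ratio of genes at low levels, 1 fragment in low-dose BMN/PAZA weighed 1.41 times a fragment in BMN, and 1 fragment in high-dose BMN/PAZA weighed 1.39 times a fragment in BMN. A fragment in PAZA weighed 1.03 times a fragment in Control. Because no group has a second library, no difference below has a replicate check. Each compares 2 libraries and carries no p-value.

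The RNA held transcripts of host tissue, in different amounts per library. Summed over 5 skeletal muscle markers, the level was 4.31 FPKM in Control, 30.3 in PAZA, 85.7 in BMN, 6.57 in low-dose BMN/PAZA and 107.9 in high-dose BMN/PAZA. All 5 were above 0 in every library except low-dose BMN/PAZA, where 4 were. Summed over 5 epidermis markers, it was 36.8, 4.61, 104.6, 1.08 and 7.28 FPKM in the same order, with 2 markers above 0 in low-dose BMN/PAZA and 4 in each other library. Summed leukocyte markers ranged from 64.4 to 93.0 FPKM, summed fibroblast markers from 57.4 to 137.9 and summed adipocyte markers from 24.2 to 65.5. The epithelial keratin KRT8 had 63.0 FPKM in Control, 82.7 in PAZA, 59.7 in BMN, 101.5 in low-dose BMN/PAZA and 79.3 in high-dose BMN/PAZA. The other epithelial markers were weak and had other orders, with KRT18 from 0 in Control to 2.01 FPKM in PAZA and EPCAM from 0 in PAZA to 1.71 FPKM in BMN. None of 5 lung epithelium markers (SFTPC, SFTPA1, SFTPB, SCGB1A1 and NKX2-1) was listed above 0 in any library. Of 6 germ cell markers, 1 was above 0 in each library, either SYCP3 or DDX4, at 1.10 FPKM or less, and DAZL, PRM1, PRM2 and TNP1 were not above 0. The part of these differences in the results below was not tested, and in bulk RNA fewer cells of a type and less RNA per cell cannot be told apart.

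The promoters are where DNA methylation would act on these genes, so the 250 bases before the transcription start are shown for the 3 members with the highest levels in low-dose BMN/PAZA and, for contrast, for Tdrkh, whose highest level was in Control. The sequences are from RefSeq on GRCm38.p6, written 5′ to 3′ on the strand of the gene, and capitals mark each CpG, the dinucleotide that DNMT1 methylates.
Tdrd9, chr12:111971309-111971558, plus strand: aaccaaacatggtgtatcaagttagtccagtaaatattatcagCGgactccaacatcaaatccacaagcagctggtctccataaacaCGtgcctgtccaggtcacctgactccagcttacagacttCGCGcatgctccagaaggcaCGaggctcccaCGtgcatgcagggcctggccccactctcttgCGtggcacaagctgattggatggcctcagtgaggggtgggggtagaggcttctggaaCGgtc
Piwil4, chr9:14740673-14740922, minus strand: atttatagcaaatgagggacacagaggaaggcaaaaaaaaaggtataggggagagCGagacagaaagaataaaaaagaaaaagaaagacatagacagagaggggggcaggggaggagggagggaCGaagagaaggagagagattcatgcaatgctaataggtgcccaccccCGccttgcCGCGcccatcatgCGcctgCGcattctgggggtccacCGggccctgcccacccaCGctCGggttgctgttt
Asz1, chr6:18109062-18109311, minus strand: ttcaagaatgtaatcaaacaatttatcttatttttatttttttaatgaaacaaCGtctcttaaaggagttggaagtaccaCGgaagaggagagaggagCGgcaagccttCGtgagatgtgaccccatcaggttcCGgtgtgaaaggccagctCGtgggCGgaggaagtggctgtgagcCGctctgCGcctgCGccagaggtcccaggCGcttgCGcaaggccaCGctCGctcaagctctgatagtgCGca
Tdrkh, chr3:94412994-94413243, plus strand: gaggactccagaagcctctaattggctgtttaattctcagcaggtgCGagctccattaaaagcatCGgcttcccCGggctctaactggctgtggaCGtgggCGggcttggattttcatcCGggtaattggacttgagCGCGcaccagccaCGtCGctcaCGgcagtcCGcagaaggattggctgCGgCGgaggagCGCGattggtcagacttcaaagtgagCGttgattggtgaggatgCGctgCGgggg

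These stretches hold 8 CpG for Tdrd9, 10 for Piwil4, 15 for Asz1 and 19 for Tdrkh. Windows from 250 bases before to 50 after the start were found for 8 of the 10 members (12 windows, because Tdrd12, Piwil4 and Dnmt3l have several starts). The ratio of observed to expected CpG, which is near 1 in CpG islands, had a median of 0.384 over all 32851 windows of this length. It was 1.11 for Tdrd5, 0.956 for Tdrkh, 0.783 for Asz1, 0.780 for Mael and 0.430 for Tdrd9. For Piwil4 it was 0.543 at the upstream start and 0 at the downstream start, for Tdrd12 it was 0.408 and 0.341 in windows that overlap, and for Dnmt3l it ranged from 0.114 to 0.272 over 3 starts. The members therefore spanned CpG-rich and CpG-poor promoters, and the promoter of Tdrd5 had a higher ratio than 98.2% of all windows.

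**Figure D1:**
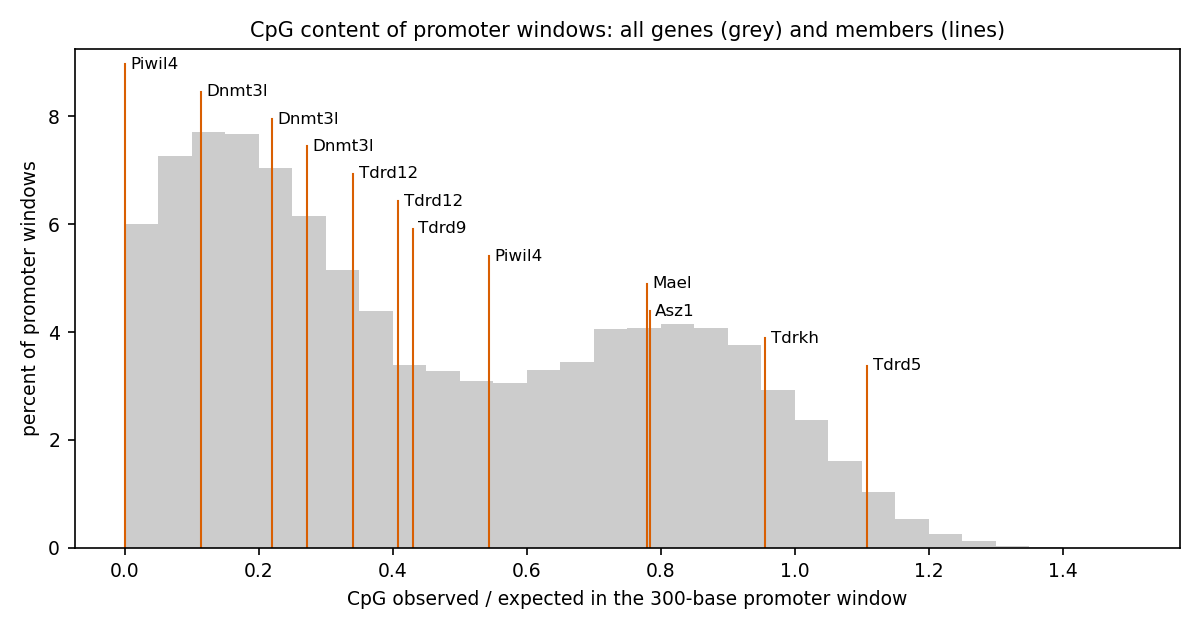
Ratio of observed to expected CpG (x axis, no unit) in promoter windows, as the percent of all 32851 windows in each bin (grey bars, y axis), with an orange line for each of the 12 windows of 8 members at its own ratio. The members lie from 0 for the downstream start of Piwil4 to 1.11 for Tdrd5, and the height of a line only places its label.

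A pair of short motifs known from germline gene promoters was counted in the same windows, on both strands. The E-box CACGTG, which reads the same on both strands, is found in 7.15% of all windows and in 3 of the 12 windows of members (Tdrd9, Mael and 1 of 3 starts of Dnmt3l). Tdrd9 has it 2 times, and 0.594% of all windows have it 2 times or more. The E2F-type motif GCGGGA is found in 20.0% of all windows and in 2 of the 12 windows of members (Tdrd5 and Mael). These matches describe letters in a window and not occupied sites, and methylation was not measured.

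The members were weakly expressed in all libraries. Levels here are from the Control/PAZA table for those groups, from the BMN/low-dose table for BMN and low-dose BMN/PAZA, and from the BMN/high-dose table for high-dose BMN/PAZA. In these tables the highest level was 3.05 FPKM, for TDRD9 in low-dose BMN/PAZA, whereas the table of both doses, whose low-dose column has a raised scale described further on, lists it at 9.94 FPKM. Of the 10 members, 9 had a value above 0 in low-dose BMN/PAZA, 7 in PAZA and in BMN, 6 in Control and 5 in high-dose BMN/PAZA. Of the 26143 genes above 0 in at least 1 library, 84.7% were above 0 in low-dose BMN/PAZA, 70.1% in PAZA, 74.0% in BMN, 68.0% in Control and 52.5% in high-dose BMN/PAZA. Unlisted genes were counted as not above 0. The high-dose share is not like the others, because its table lists only 16155 symbols, among them 9 of the 10 members. Of 19358 genes above 0 in BMN, only 13859 were above 0 for BMN in that table. The other libraries had the same order as for the members (with PAZA and BMN tied). Low-dose BMN/PAZA held the highest level of 6 members (TDRD5, TDRD9, TDRD12, PIWIL4, ASZ1 and MORC1), Control that of TDRKH and PIWIL2, and PAZA that of DNMT3L. Over all these genes, with unlisted ones again counted as not above 0, low-dose BMN/PAZA held the highest level of 37.1%, Control of 17.1% and PAZA of 16.8%. Of the 20030 genes under 10 FPKM in every library low-dose BMN/PAZA held the highest level of 41.0%. The 6 members highest at the low dose all belong to a list drawn from the contrast with BMN on these samples, so nothing is read from their count. MAEL had no value above 0. Where a member was listed above 0 for the same library in 2 tables, its values kept the constant ratio between those tables within 0.5%.

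**Figure D2:**
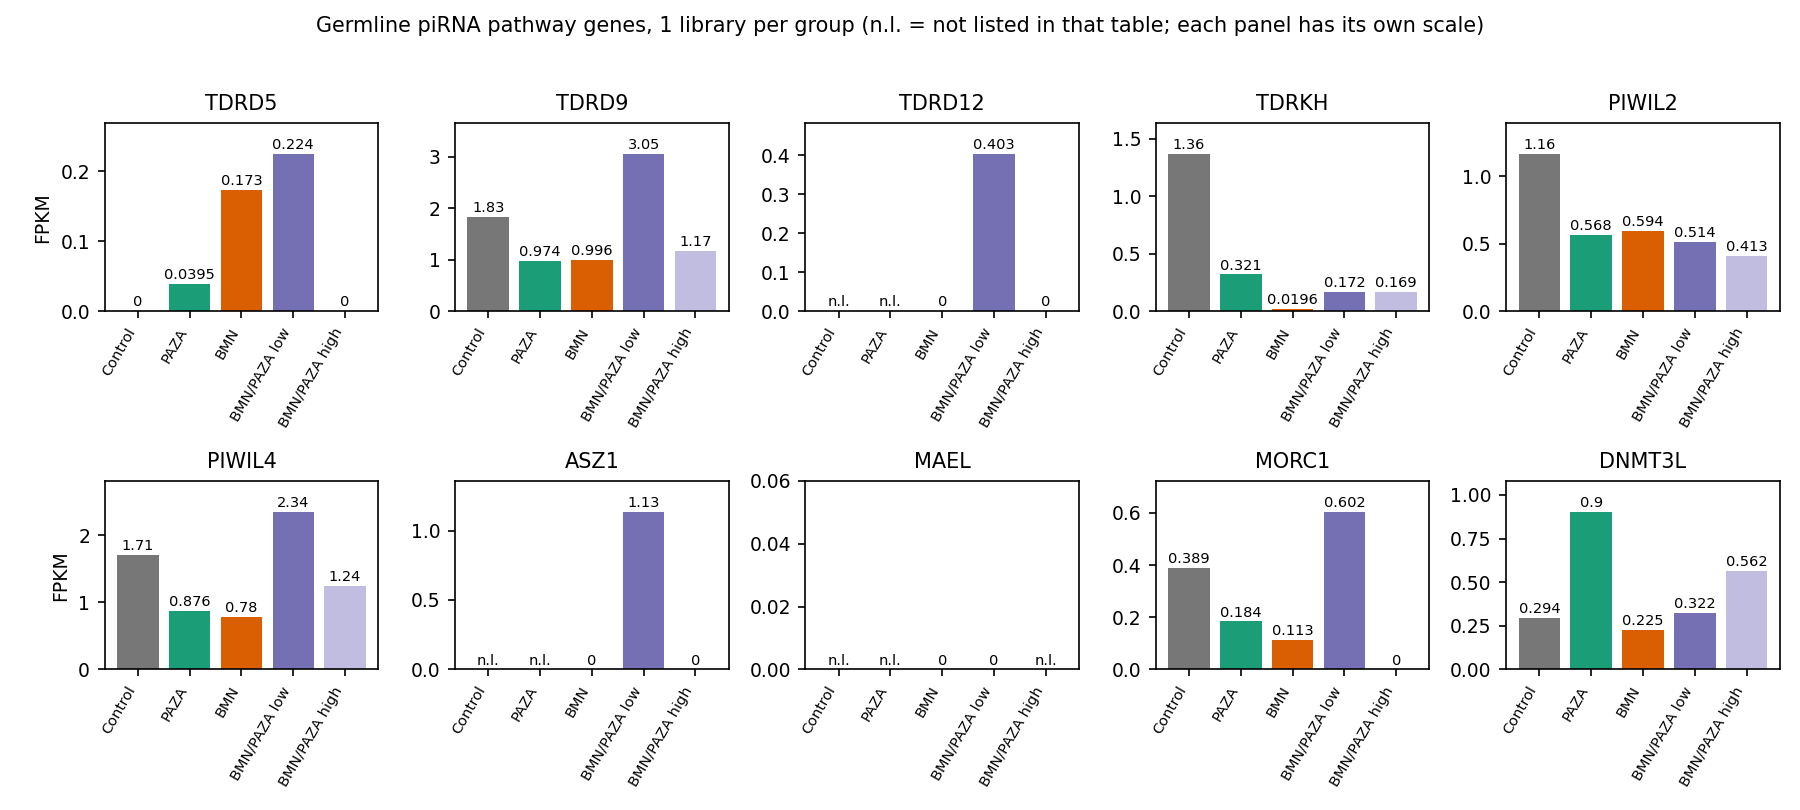
Level of each member in FPKM (y axis, from 0, with its own scale in each panel) in the 5 libraries (x axis, 1 bar per library). TDRD9, PIWIL4 and MORC1 share a shape, with Control and low-dose BMN/PAZA above PAZA and BMN, whereas TDRD12 and ASZ1 have a bar in low-dose BMN/PAZA alone, and n.l. marks a table that does not list the gene.

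PIWIL4 (MIWI2), on chromosome 9 of GRCm38 from 14696230 to 14740733, is the nuclear PIWI protein that carries piRNAs to transposon loci in fetal male germ cells. It had 1.71 FPKM in Control, 0.876 in PAZA, 0.780 in BMN, 2.34 in low-dose BMN/PAZA and 1.24 in high-dose BMN/PAZA. Low-dose BMN/PAZA and Control were the highest libraries, and PAZA alone stood close to BMN alone. Brought to 1 scale, low-dose BMN/PAZA was 1.29 times Control and BMN was 0.431 times Control. PIWIL2 (MILI), on chromosome 14 from 70372477 to 70429383, is the cytoplasmic PIWI protein that cuts transposon transcripts and amplifies piRNAs. It had 1.16 FPKM in Control, 0.568 in PAZA, 0.594 in BMN, 0.514 in low-dose BMN/PAZA and 0.413 in high-dose BMN/PAZA. Every treated library was below Control, and low-dose BMN/PAZA had no higher level of PIWIL2 than BMN or PAZA. The PIWI genes thus had different orders over the 5 libraries.

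Tudor domain proteins bind methylated arginines of PIWI proteins and assemble the granules in which piRNAs are made. TDRD9, an RNA helicase that acts with PIWIL4 and lies on chromosome 12 from 111971559 to 112068854, had 1.83 FPKM in Control, 0.974 in PAZA, 0.996 in BMN, 3.05 in low-dose BMN/PAZA and 1.17 in high-dose BMN/PAZA. Its order over the libraries was that of PIWIL4, except for PAZA and BMN, which lay closer together than the scale difference between the tables. On 1 scale, low-dose BMN/PAZA was 1.57 times Control and BMN was 0.512 times Control.

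TDRD12, another Tudor protein with a helicase domain, on chromosome 7 from 35469098 to 35537745, was listed at 0.403 FPKM in low-dose BMN/PAZA and at 0 in BMN and high-dose BMN/PAZA. The Control/PAZA table does not list it, and the table of PAZA and low-dose BMN/PAZA lists it at 0 in PAZA. TDRD5, a Tudor protein needed for piRNA precursors and lying on chromosome 1 from 156255296 to 156303664, was at 0 in Control and high-dose BMN/PAZA. Its values were 0.0395 FPKM in PAZA, 0.173 in BMN and 0.224 in low-dose BMN/PAZA. TDRD5 was thus weak in all 5 libraries.

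TDRKH (TDRD2), on chromosome 3 from 94413273 to 94434668, holds PIWI proteins at mitochondria while piRNA ends are trimmed. It had 1.36 FPKM in Control, 0.321 in PAZA, 0.0196 in BMN, 0.172 in low-dose BMN/PAZA and 0.169 in high-dose BMN/PAZA. Control was the highest library by a wide margin. The ratio of 8.77 between low-dose BMN/PAZA and BMN therefore compares a low level with a still lower one, and low-dose BMN/PAZA was 0.119 times Control on 1 scale.

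ASZ1 (GASZ), a scaffold of the mitochondrial granules of germ cells on chromosome 6 from 18050964 to 18109061, was listed at 1.13 FPKM in low-dose BMN/PAZA and at 0 in BMN and high-dose BMN/PAZA. It was also at 0 in PAZA in the table with low-dose BMN/PAZA, and the Control/PAZA table does not list it. That table holds no row with 0 in both libraries, so a gene at 0 in both would be missing from it. MAEL, a granule protein that also acts in transposon silencing, on chromosome 1 from 166201201 to 166238747, was listed at 0 in BMN and low-dose BMN/PAZA. It is not listed in the other tables.

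MORC1, an ATPase that male germ cells need for transposon silencing, on chromosome 16 from 48431237 to 48630900, had 0.389 FPKM in Control, 0.184 in PAZA, 0.113 in BMN and 0.602 in low-dose BMN/PAZA. It was listed at 0 in high-dose BMN/PAZA. Here too Control and low-dose BMN/PAZA were the highest libraries. DNMT3L, a cofactor without catalytic activity that stimulates DNMT3A at new methylation sites, lies on chromosome 10 from 78041947 to 78063622. It had 0.294 FPKM in Control, 0.900 in PAZA, 0.225 in BMN, 0.322 in low-dose BMN/PAZA and 0.562 in high-dose BMN/PAZA. PAZA was the highest library, followed by high-dose BMN/PAZA, an order no other member had. A pseudogene row, DNMT3L-PS1, stood at 0.256 FPKM in Control, 0.131 in PAZA, 0.140 in low-dose BMN/PAZA and 0 in BMN and high-dose BMN/PAZA, and fragments may be split between the gene and this copy.

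Differences were then taken within a table, on the log2(FPKM + 0.1) scale, and a gene was called at a difference of 1 or more, which is 2-fold. The pseudocount of 0.1 understates the change of the weakest genes. PAZA against Control shows the carrier with azacytidine alone. Of the 7 members with a value, 5 were lower in PAZA and 2 were higher, with a median log2 difference of −0.85, beside 0.011 over all 20236 genes. TDRKH was past 2-fold lower, at a log2 difference of −1.80, as were 12.2% of all genes and 15.8% of those with the higher value under 10 FPKM. DNMT3L was past 2-fold higher, at 1.34, as were 14.7% of all genes and 19.0% of those under 10 FPKM. Both counts of 1 of 7 are near this background. TDRD9, PIWIL2, PIWIL4 and MORC1 lay close together, with PAZA at 0.531, 0.489, 0.513 and 0.472 times Control and log2 differences between −0.92 and −0.79. TDRD5, at 0 in Control, had a difference of 0.48. Marker sums in PAZA and Control were 30.3 and 4.31 FPKM for skeletal muscle, 4.61 and 36.8 for epidermis, 65.5 and 24.2 for adipocytes, 90.0 and 57.4 for fibroblasts, and 90.5 and 69.5 for leukocytes.

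**Figure D3:**
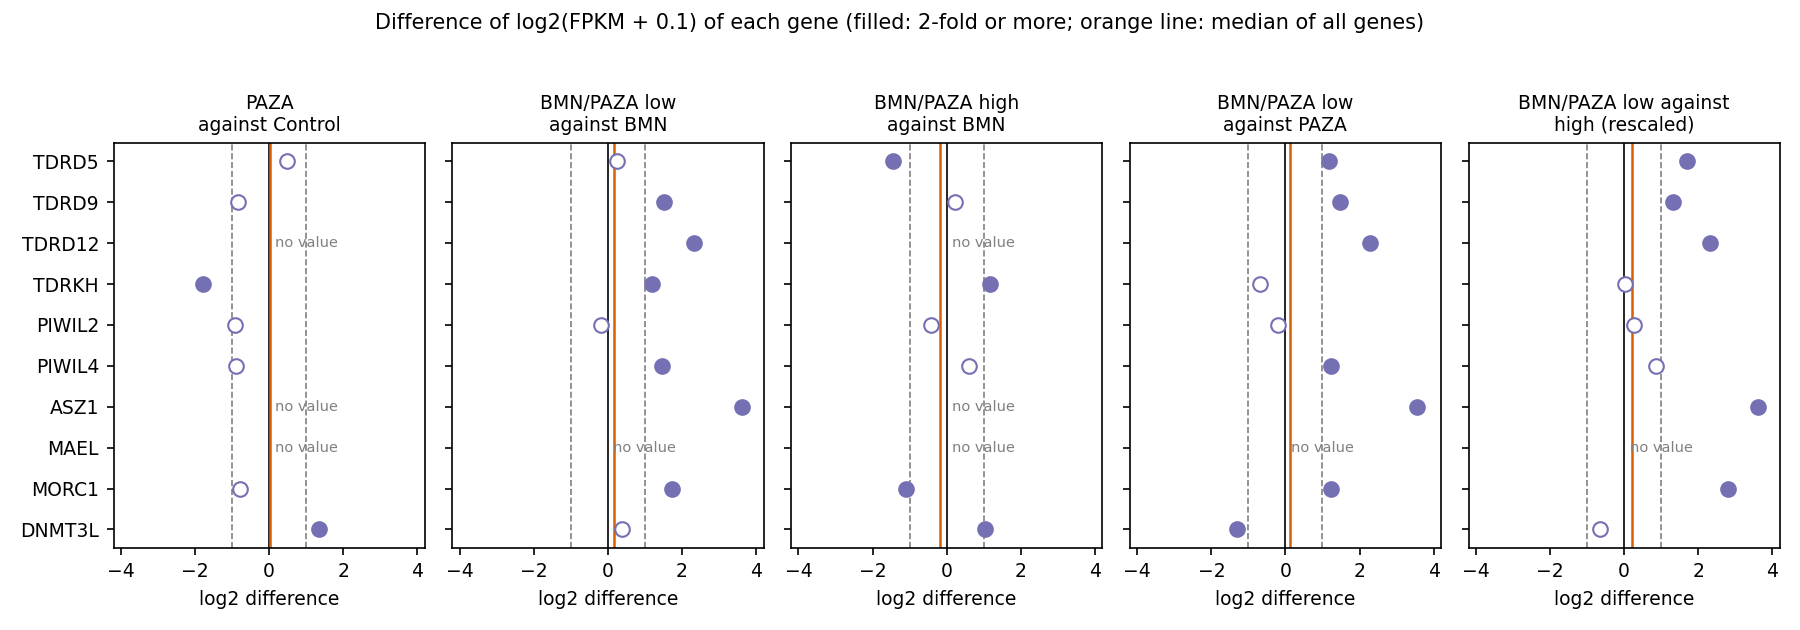
Difference of log2(FPKM + 0.1) (x axis) of each member (rows) in 5 comparisons of 2 libraries, with the low dose brought to the scale of the table with BMN in the last panel. Filled points are 2-fold or more, dashed lines mark that fold, the orange line is the median of all genes, and the points of TDRD9, TDRKH, PIWIL4 and MORC1 lie left of 0 in the first panel and right of it in the second.

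Low-dose BMN/PAZA against BMN compares the PARP inhibitor in the carrier with the inhibitor alone. Of 9 members with a value, 8 were higher in low-dose BMN/PAZA, and 6 were past 2-fold: TDRD9, TDRD12, TDRKH, PIWIL4, ASZ1 and MORC1. Over all 24374 genes 21.7% were past 2-fold higher and 11.0% lower, and of the 18624 genes with the higher value under 10 FPKM 26.5% were higher and 13.3% lower. Centred on the median of all genes, the shares of all genes were 17.9% and 13.8%. Of the 10 members, 8 form a list that was itself drawn from this contrast of these samples, so their count is not independent evidence of a direction. That list holds genes from a single end of a ranking by this contrast, so a shared direction was built into it. The study did not present that end as higher in low-dose BMN/PAZA, and the direction given here rests on the column names of the deposited tables. The column named for BMN has the same values in both tables that hold it, and the low-dose column keeps a constant ratio for most genes over the 3 tables that hold it. Of the other 2 members, PIWIL2 had 0.866 times its BMN level and MAEL was at 0. The log2 differences were 1.52 for TDRD9, 1.47 for PIWIL4, 1.72 for MORC1 and 1.19 for TDRKH. ASZ1 and TDRD12, at 0 in BMN, had 3.62 and 2.33, which depend on the pseudocount. TDRD5 and DNMT3L were within 2-fold, at 0.25 and 0.38. The median was 1.47, beside 0.18 over all genes and 0.30 over genes under 10 FPKM. With pseudocounts of 0.5 and 1 the median of the members was 0.85 and 0.49, and 3 and 2 members were past 2-fold higher. Marker sums of other tissues were lower in low-dose BMN/PAZA than in BMN, at 1.08 against 104.6 FPKM for epidermis, 6.57 against 85.7 for skeletal muscle, 64.0 against 137.9 for fibroblasts, 65.6 against 93.0 for leukocytes and 32.7 against 48.1 for adipocytes.

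**Figure D4:**
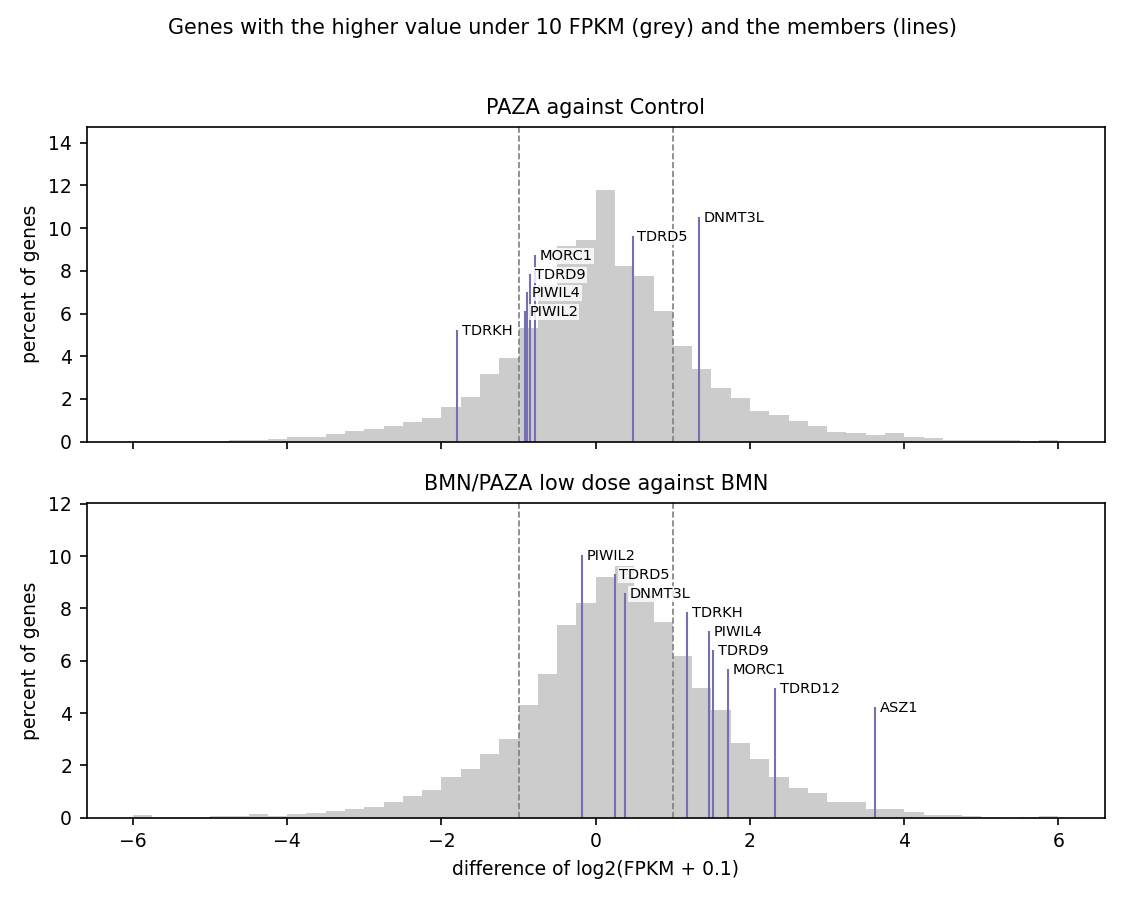
Difference of log2(FPKM + 0.1) (x axis) over the genes whose higher value is under 10 FPKM, as percent of genes per bin (grey bars, y axis), with a line for each member at its own difference, for PAZA against Control (top) and low-dose BMN/PAZA against BMN (bottom). Most members stand left of the centre in the top panel and right of it in the bottom panel, and the height of a line only places its label.

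High-dose BMN/PAZA against BMN gave a different picture for the same genes, with the BMN library shared by both comparisons. Of 7 members with a value, 2 were past 2-fold higher, TDRKH at 1.17 and DNMT3L at 1.03, beside 7.40% of 14460 genes and 10.3% of those under 10 FPKM. Past 2-fold lower were TDRD5 at −1.45 and MORC1 at −1.09, both at 0 in the high dose, beside 10.2% of genes and 12.8% of those under 10 FPKM. Centred on the median of all genes, 9.61% of genes were higher and 7.63% lower, and MORC1 was no longer past 2-fold. TDRD9 and PIWIL4 were within 2-fold, with ratios of 1.17 and 1.59. PIWIL2 had a ratio of 0.695. The median was 0.21, beside −0.17 over all genes. ASZ1 and TDRD12 were at 0 in both libraries. Marker sums at the high dose and in BMN were 7.28 and 104.6 FPKM for epidermis, 76.5 and 137.9 for fibroblasts, 64.4 and 93.0 for leukocytes, 39.5 and 48.1 for adipocytes, and 107.9 and 85.7 for skeletal muscle.

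Low-dose BMN/PAZA against PAZA compares the carrier with and without the PARP inhibitor, and shares the low-dose library with the comparison against BMN. Of 9 members with a value, 6 were past 2-fold higher (TDRD5, TDRD9, TDRD12, PIWIL4, ASZ1 and MORC1), beside 20.6% of 23909 genes and 26.3% of those under 10 FPKM. All 6 belong to the list drawn from the contrast with BMN, which used this low-dose library, so nothing is read from their count. DNMT3L was past 2-fold lower, at −1.31, beside 9.99% of genes and 12.3% of those under 10 FPKM. TDRD9 was 2.95 times and PIWIL4 2.52 times the PAZA level. TDRKH and PIWIL2 were lower at 0.506 and 0.854 times the PAZA level. The median of the members was 1.24, beside 0.12 over all genes. Marker sums in low-dose BMN/PAZA and PAZA were 6.57 and 30.3 FPKM for skeletal muscle, 1.08 and 4.61 for epidermis, 32.7 and 65.5 for adipocytes, 64.0 and 90.0 for fibroblasts, and 65.6 and 90.5 for leukocytes.

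In the table of both doses, the low-dose column stood at 3.26 times its values in the table with BMN. As deposited, 8 of 9 members were past 2-fold higher at the low dose and 0 lower, beside 86.0% higher and 3.41% lower of 16155 genes, and 74.4% and 6.52% of those under 10 FPKM. The column was therefore brought to the scale of the table with BMN, where 14.6% of genes were past 2-fold higher and the median of all genes was 0.21. On this scale 5 of 9 members were past 2-fold higher at the low dose. TDRD9 was one of them, with 3.05 FPKM at the low and 1.17 at the high dose, a log2 difference of 1.31. The others were TDRD5, TDRD12, ASZ1 and MORC1, each listed at 0 at the high dose. All 5 belong to the list drawn from the contrast of this low-dose library with BMN, so nothing is read from their count. PIWIL4 had 1.89 times its high-dose level and TDRKH 1.02 times, and PIWIL2 differed by 0.26 on the log2 scale. DNMT3L had 0.572 times its high-dose level. Marker sums at the low and the high dose were 6.57 and 107.9 FPKM for skeletal muscle, 1.08 and 7.28 for epidermis, 32.7 and 39.5 for adipocytes, 64.0 and 76.5 for fibroblasts, and 65.6 and 64.4 for leukocytes.

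The rest of the pathway was followed with 20 other piRNA genes, among them PIWIL1, DDX4, MOV10L1 and TDRD1. Their counts are not set against those of the members, most of which were drawn from the contrast with BMN. In low-dose BMN/PAZA against BMN 11 had a value, 0 were past 2-fold higher and 2 were past 2-fold lower, beside 21.7% and 11.0% of all genes, and the median log2 difference was 0.34. PIWIL1, DDX4, TDRD1, TDRD6, TEX15 and BTBD18 were each under 0.1 FPKM in low-dose BMN/PAZA. At such levels the pseudocount of 0.1 keeps any rise under 2-fold, so these genes could not be called higher. The 2 lower genes were GTSF1, a zinc finger partner of PIWI proteins, at 0.258 against 0.809 FPKM in BMN, and RNF17, a Tudor protein with a RING finger, at 0.311 against 0.784. DDX4, the germ cell helicase VASA, was at 0.0588 FPKM in low-dose BMN/PAZA and 0 in BMN. TDRD7, which somatic tissue also expresses, was the most abundant of these genes and lay off the constant between tables, with 26.8 FPKM for low-dose BMN/PAZA in the table with BMN and 17.6 in the table with PAZA.

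In PAZA against Control 9 of these 20 genes had a value, with 3 past 2-fold higher and 0 lower, beside 14.7% and 12.2% of all genes, and a median of 0.60. The 3 genes were DDX4, RNF17 and STK31, each at 0 in Control and at 0.219, 0.267 and 0.262 FPKM in PAZA. In high-dose BMN/PAZA against BMN 8 had a value, with 1 past 2-fold higher (BTBD18, at 0.104 FPKM and 0 in BMN), 2 lower (GTSF1 and RNF17, both at 0 at the high dose) and a median of −0.26, beside 7.40% higher and 10.2% lower of all genes. In low-dose BMN/PAZA against PAZA 13 had a value, with 0 higher, 2 lower (DDX4 and STK31) and a median of 0.017, beside 20.6% higher and 9.99% lower of all genes. In the table of both doses 12 had a value, and 8 were past 2-fold higher as deposited, beside 86.0% of all genes. On the scale of the table with BMN 2 were past 2-fold higher at the low dose (GTSF1 and RNF17) and 0 lower, beside 14.6% and 6.56% of all genes. The genes under 0.1 FPKM in low-dose BMN/PAZA could not be called higher on this scale or against PAZA either.

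A list of 13 other germline genes known to be silenced by methylation had values for few members. TEX101 was the most abundant, at 3.28 FPKM in Control, 4.29 in PAZA, 4.84 in BMN, 5.63 in low-dose BMN/PAZA and 3.51 in high-dose BMN/PAZA. It was past 2-fold only in the table of both doses as deposited. In low-dose BMN/PAZA against BMN 6 had a value, with 2 past 2-fold higher and 1 lower, beside 21.7% and 11.0% of all genes, and a median of 0.32. SYCP2, a protein of the synaptonemal complex that pairs chromosomes in meiosis, had 0.741 FPKM in low-dose BMN/PAZA and 0 in BMN. SYCP3, of the same complex, had 0 in low-dose BMN/PAZA, 1.10 in BMN and 0.979 in high-dose BMN/PAZA. BRDT, a bromodomain protein of spermatocytes, had 1.07 FPKM in low-dose BMN/PAZA and 0.463 in BMN, and 1.12 in PAZA against 0.399 in Control. BRDT was thus past 2-fold higher in both of these comparisons, at log2 differences of 1.05 and 1.29, but at the high dose it had 0.213 FPKM. In PAZA against Control 5 of the 13 had a value, with BRDT past 2-fold higher and SYCP3 past 2-fold lower, beside 14.7% and 12.2% of all genes. In high-dose BMN/PAZA against BMN 6 had a value, with 3 past 2-fold higher and 0 lower, beside 7.40% and 10.2% of all genes. These were SYCP2 at 0.246 FPKM, TAF7L at 0.151 and STAG3, a meiotic cohesin, at 0.499, each at 0 in BMN. In low-dose BMN/PAZA against PAZA 4 had a value, with SYCP2 past 2-fold higher and 0 lower, beside 20.6% and 9.99% of all genes. In the table of both doses 6 had a value, with 3 past 2-fold in each direction as deposited, beside 86.0% higher and 3.41% lower of all genes. On the scale of the table with BMN 2 were past 2-fold higher at the low dose (SYCP2 and BRDT) and 3 lower (SYCP3, STAG3 and TAF7L), beside 14.6% and 6.56%.

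**Figure D5:**
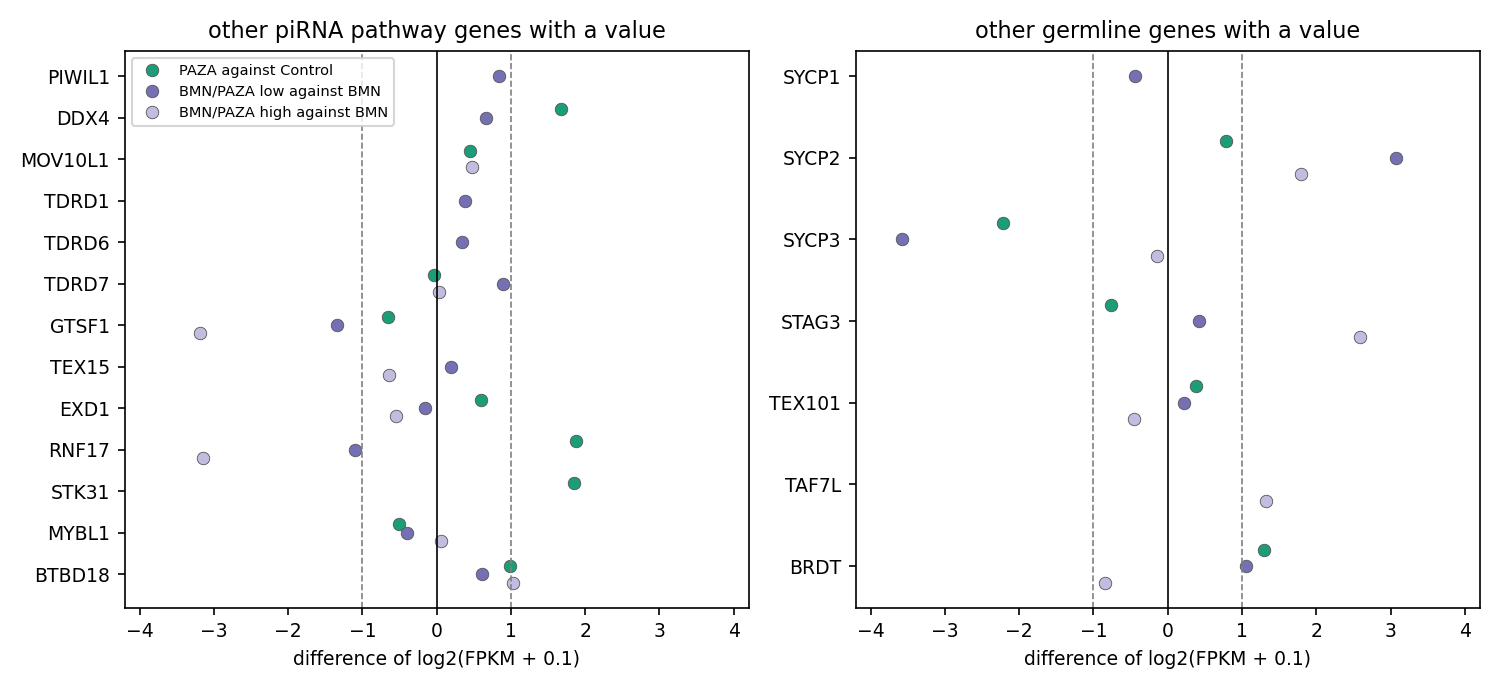
Difference of log2(FPKM + 0.1) (x axis) for the other piRNA pathway genes (left) and other germline genes (right) that had a value, with a point for each of 3 comparisons of 2 libraries. Dashed lines mark 2-fold. For low-dose BMN/PAZA against BMN, SYCP2 lies right of 0 at 3.07, and GTSF1 and SYCP3 lie left of it at −1.35 and −3.58.

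Among the enzymes that maintain methylation, DNMT1 had 84.8 FPKM in Control, 56.2 in PAZA, 78.2 in BMN, 46.0 in low-dose BMN/PAZA and 30.9 in high-dose BMN/PAZA. The 3 libraries with PAZA were the lowest, and high-dose BMN/PAZA was the lowest of these. DNMT3A, the enzyme that DNMT3L stimulates, ranged from 4.13 to 6.41 FPKM, DNMT3B from 0.0364 to 0.131 and UHRF1, which brings DNMT1 to newly copied DNA, from 41.5 to 50.9.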

How the data were processed

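The authors deposited 5 tables of 2 libraries each. The submitters' processing notes name GRCm38, HISAT2 and StringTie. The deposited values were read as FPKM from their form. Groups were taken from the sample labels. Differences were computed within a table as log2(FPKM + 0.1), without further normalization, over genes above 0 in either library, and a difference of 1 or more was called. Where a symbol was repeated, the row with the highest mean was used. With 1 library in each group no test was possible. The constant between tables is the median ratio of the values of a shared library. The weight of a fragment is the most frequent ratio among genes under 2 FPKM. Gene positions are from GENCODE vM21 and promoter windows from RefSeq (GRCm38.p6). All 10 members are named, and of the other lists mainly genes past 2-fold with a value of 0.5 FPKM or more. BTBD18, DDX4, STAG3, STK31, TAF7L, TDRD7 and TEX101 were named after their values were seen. Members and lists were chosen with earlier results of these data known. Steps were tested on simulated data. Python 3.11.15, numpy 2.4.6, pandas 2.3.3 and matplotlib 3.10.9 were used. Alternatives were other pseudocounts, folds, filters, centring and table scales.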

Additional observations from a re-analysis of the deposited data

Results flagged for a closer look

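Some members differed in opposite directions in comparisons of the same kind. None of these differences was tested, for want of replicates. PAZA was present without BMN in PAZA against Control and with BMN in low-dose BMN/PAZA against BMN. TDRD9, TDRKH, PIWIL4 and MORC1 were lower in the first and higher in the second. On the log2(FPKM + 0.1) scale all 4 were past 2-fold in the second, but only TDRKH was in the first, where the plain ratio for MORC1 was 0.472. The log2 differences of the comparisons lay 2.37 apart for TDRD9, 2.99 for TDRKH, 2.36 for PIWIL4 and 2.51 for MORC1. Control had a higher level than BMN for each of these 4 genes.

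Against BMN, MORC1 was past 2-fold higher at the low dose and past 2-fold lower at the high dose, where it was listed at 0 against 0.113 FPKM. This high-dose call was lost when differences were centred on the median of all genes and at pseudocounts of 0.5 and 1. TDRD5 was past 2-fold lower at the high dose, but at the low dose its ratio to BMN of 1.29 was within 2-fold and below the 1.41 weight ratio of a fragment. Its high-dose call was lost at both larger pseudocounts too. The comparisons share the BMN library, and the log2 differences lay 1.70 apart for TDRD5 and 2.81 for MORC1. Both genes were listed at 0 at the high dose.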

How the results depend on the processing

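No paired analysis was possible because no group holds more than 1 library, and none could be left out. Depth is not given, which limits every statement on values near 0. Of 95 alternative values, 57 stayed within 1.5 times the count or 0.25 of the log2 median, 38 moved further and 0 changed sign. With a pseudocount of 1, the members past 2-fold higher were 0 in PAZA against Control, 2 in low-dose BMN/PAZA against BMN, 0 in high-dose BMN/PAZA against BMN, 1 in low-dose BMN/PAZA against PAZA and 5 in low against high dose, those lower were 0 in each of the comparisons that had any, and the medians were −0.46 for PAZA against Control, 0.49, 0.41 and 1.21 for low-dose BMN/PAZA against BMN, PAZA and the high dose. With a pseudocount of 0.5, those higher were 0, 3, 0 and 2 in the first 4 comparisons, those lower were 0 in high-dose BMN/PAZA against BMN and low-dose BMN/PAZA against PAZA, and the medians for the low dose were 0.85, 0.65 and 1.86. A pseudocount near or above the values shrinks each difference by construction. At 4-fold, 0, 2, 0 and 2 were higher and 0 lower. With only genes at 0.5 FPKM or more, high-dose BMN/PAZA against BMN had 1 higher and 0 lower, since TDRD5, TDRKH and MORC1 drop out. Centred on the median of all genes, it had 1 lower, and low against high dose had 5 higher, 1 lower and a median of 1.16. Division of that low-dose column by 3.6 gave 5 higher and a median of 1.17. The scale of the table with BMN, chosen after seeing the data, gave 5 and 1.31. Values of a shared library from another table, summed rows and a background under 10 FPKM changed no count of members.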
